A study of Rattus norvegicus with 8 samples.

Results

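The comparison is of the renal outer medulla of rats with ethylene glycol-induced stones that did or did not also receive phlorizin. It rests on 2 of the 8 arrays of the series, 1 array a side, and each value is the log2 difference of a probe set, the array with phlorizin minus the array without. Of 23188 probe sets for transcripts, 13170 were compared, namely those whose highest value over the 8 arrays reached 7.54, the median of all values. The study asked how inhibition of SGLT2 relates to stone formation in the kidney. Stones were induced with ethylene glycol and alfacalcidol, a vitamin D analogue, over 2 weeks, and that combination is called EG here. All animals were male Sprague-Dawley rats, 10 weeks old. The 4 outer medulla arrays carry RNA of untreated controls, of rats given phlorizin alone, of rats given EG, and of rats given EG with phlorizin, and the 4 cortex arrays carry the same treatments. The dose, route and timing of phlorizin are not given in the sources used here, nor is the time of day at which the kidneys were taken. The labels do not say whether RNA of several animals was pooled on an array, and the zones of a treatment can come from the same kidneys.

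With 1 array a side there is no replicate, so no difference below carries a p-value or an error, and the number of arrays limits the precision. A probe set is counted as higher or lower where the arrays were at least 1 apart on the log2 scale, a 2-fold difference. Levels are RMA values on the log2 scale, and levels of different genes were not compared with each other, since each probe set has its own affinity. In bulk tissue, fewer cells of a type and less RNA per cell cannot be told apart.

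The outer medulla holds the straight end of the proximal tubule, the thick ascending limb of the loop of Henle and the outer medullary collecting duct, with the vasa recta between them. The thick ascending limb reabsorbs salt without water and depends on oxidative metabolism, and the intercalated cells of the collecting duct secrete acid. Ethylene glycol is turned into oxalate in the liver, and calcium oxalate crystals that form in the tubule injure its cells, which then make proteins such as kidney injury molecule 1 and osteopontin. Phlorizin blocks the sodium-glucose cotransporters SGLT2 of the early proximal tubule and SGLT1 of the straight part, and so causes glucose to be lost in the urine.

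Between EG with phlorizin and EG alone, 441 probe sets were higher (3.35% of those compared) and 572 were lower (4.34%), and the median difference was 0.02. At least 2 apart were 44 higher and 64 lower probe sets, and at least 3 apart were 11 and 10. The absolute difference had a 95th percentile of 1.19 and a 99th percentile of 1.89. As a yardstick from arrays outside the comparison, phlorizin alone minus control in the outer medulla had percentiles of 0.63 and 0.96, with 76 probe sets higher (0.577%) and 27 lower (0.205%). That yardstick holds the effect of phlorizin without EG as well as the spread between arrays. Of the 1013 probe sets called in either direction, 129 had both arrays within the range of the 23 background probes, which reached 7.98 on this pair, and 221 had 1 array there. Values under 7.98 are therefore at a level where background probes are also read.

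The markers Slc12a1 of the thick ascending limb and Aqp2 of the collecting duct read above the background range on the 4 outer medulla arrays. Those of the straight proximal tubule did so only in part. Slc12a1, the sodium-potassium-chloride cotransporter NKCC2 of the thick ascending limb, read 17.97 on the control array, 17.94 with phlorizin, 16.89 with EG and 17.70 with EG and phlorizin. Markers of the convoluted proximal and distal tubule that read 16.46 and 16.07 in the control cortex, Slc5a2 (SGLT2) and Slc12a3 (the thiazide-sensitive cotransporter), lay at 5.0 to 6.02 and 4.12 to 4.93 on the outer medulla arrays, within the background range. SGLT2 itself thus lay within background in this zone. Other genes of the convoluted proximal tubule did not, such as Cubn and Gatm at 10.75 and 10.57 on the outer medulla control array. The median level of the convoluted proximal list read 7.96, 7.70, 7.93 and 7.17 on the control, phlorizin, EG and EG with phlorizin arrays. That of the distal convoluted and connecting tubule list read 7.95, 7.95, 9.16 and 9.85. Aqp2 read 17.76, 18.15, 17.26 and 17.89 on the control, phlorizin, EG and EG with phlorizin arrays. Slc22a7, a fixed marker of the straight proximal tubule, did not reach the filter level on any array. Slco1a6, another, read 11.88 on the outer medulla control array. Hybridisation spikes averaged 10.0 on the EG array and 10.3 on the array with EG and phlorizin, and background probes averaged 5.59 and 5.66. Below, the 4 values of a gene in the outer medulla are always given in the order control, phlorizin, EG, EG with phlorizin.

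**Figure D1:**
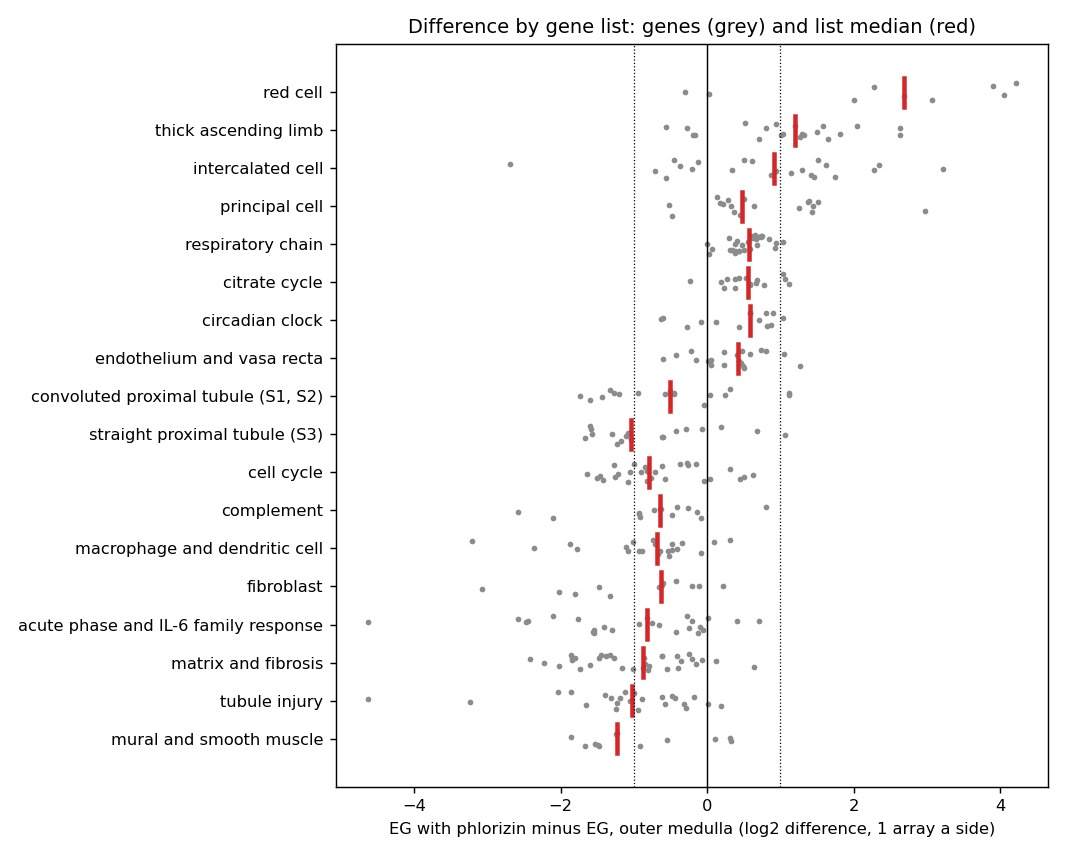
Log2 difference between the EG array with phlorizin and the EG array in the outer medulla (x axis) for the compared genes of 18 gene lists (y axis), with each gene as a grey point, the list median as a red bar and dotted lines at -1 and 1. The red cell list (median 2.69) and the thick ascending limb list (1.20) lie to the right, and the tubule injury list (-1.03) and the mural list (-1.24) to the left.

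Genes that mark injured tubule cells were lower with phlorizin. Of the 28 genes of the injury list, 24 were compared, and 12 of these were lower and 0 higher, against 4.34% and 3.35% of all probe sets. The list's median difference was -1.03, where all probe sets had 0.02. Its median level read 9.96, 9.98, 12.75 and 11.25 on the 4 arrays, so that the array with EG and phlorizin lay between the EG array and the pair without EG.

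Lcn2, which encodes the iron-carrier-binding protein NGAL that injured tubules release, read 9.05, 8.14, 13.42 and 8.79, a difference of -4.63 and the largest lower one among named genes. Its value with EG and phlorizin lay between those of the control and the phlorizin arrays. Havcr1 (kidney injury molecule 1) read 6.56, 5.59, 14.26 and 11.02, which is -3.24 between the EG arrays and still 5.43 above the lower of the arrays without EG. Lcn2 and Havcr1 thus differed in how near they came to the arrays without EG.

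Slc34a2, a sodium-phosphate cotransporter best known from gut and lung, read 9.04, 8.69, 15.05 and 13.02. Timp1, an inhibitor of matrix proteases, read 7.91, 8.23, 12.64 and 10.79. Both were lower with phlorizin among EG rats, by -2.03 and -1.85, and both stayed above the arrays without EG. Of the simple epithelial keratins, Krt18 read 8.29, 9.22, 10.98 and 9.33, Krt19 read 7.41, 7.93, 10.42 and 9.11, and Krt8 read 9.62, 9.95, 11.66 and 10.53. Their differences were -1.65, -1.31 and -1.13. Hmox1, the heme-degrading enzyme, read 6.35, 5.67, 8.47 and 7.22, so only its EG value lay above the background range.

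The abundant stone proteins differed little in this zone. Spp1 (osteopontin, a protein that binds calcium oxalate crystals) read 16.58, 16.41, 18.49 and 18.02, a difference of -0.46, where the cortex gave -2.15. Clu (clusterin, a chaperone made by stressed cells) read 14.65, 14.47, 19.12 and 18.64, or -0.48. On the EG arrays Spp1 and Clu lay near the highest value of the table, 19.7. Cd44, a receptor for hyaluronan and osteopontin, read 10.19, 9.96, 12.35 and 11.36, or -0.99. Of 14 compared genes for stone matrix and crystal binding, 1 was lower and 0 higher, with a median of -0.63 that was -0.31 without the filter. That gene was Mgp (matrix Gla protein, an inhibitor of calcification), which read 13.76, 13.56, 17.17 and 15.58.

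**Figure D2:**
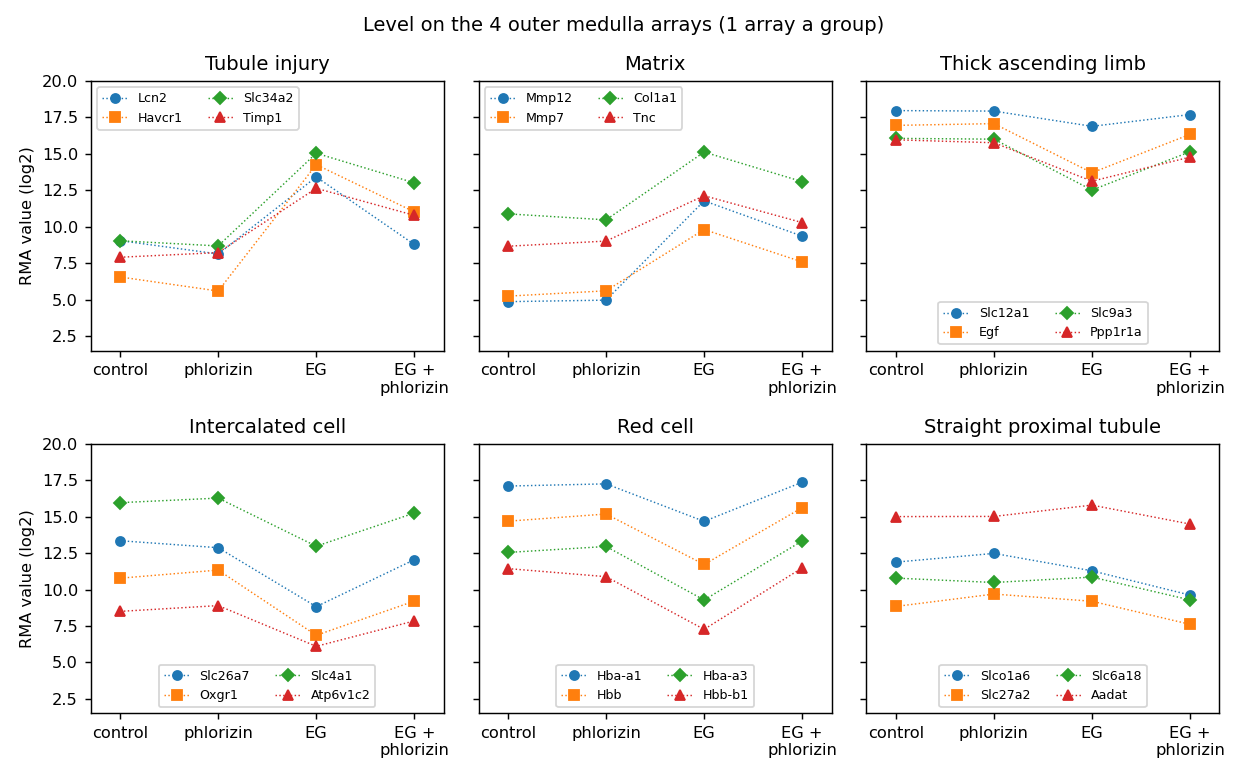
RMA value (log2, y axis) of 24 genes on the 4 outer medulla arrays (x axis), 1 array a group, with 4 genes a panel and dotted lines only to guide the eye. The injury and matrix genes are highest on the EG array and lower on the array with EG and phlorizin (Lcn2 13.42 and 8.79), and the thick ascending limb, intercalated and red cell genes are lowest on the EG array (Egf 13.71, then 16.34 with phlorizin).

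Acute phase genes, which cells make in response to interleukin 6 and related cytokines, were lower with phlorizin. Of 32 listed genes, 25 were compared, with 11 lower and 0 higher and a median of -0.82. A2m, the protease trap alpha-2-macroglobulin, read 5.91, 6.0, 14.22 and 11.74. Serpina3n, a serine protease inhibitor, read 7.92, 7.65, 12.72 and 10.95. Socs3, the feedback inhibitor of cytokine signalling, read 6.67, 6.85, 11.42 and 9.88. These 3 genes differed by -2.48, -1.77 and -1.54, and each still lay over 3 above the control array with EG and phlorizin.

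The fibrinogen chains Fga (6.19, 6.91, 10.06 and 8.65), Fgb (5.35, 5.46, 8.43 and 6.87) and Fgg (5.13, 4.42, 7.07 and 5.52) differed by -1.41, -1.56 and -1.55. Complement C3 read 5.98, 5.95, 9.28 and 7.17, and C4b read 4.11, 4.44, 7.47 and 4.89. Fgg and C4b lay within the background range on both EG arrays, and the C4b difference of -2.58 was -1.81 with a floor at the mean of the background probes. Il24, a cytokine of the interleukin 10 family, was at 4.22, 4.47, 7.99 and 5.55. C3 and C4b were the only lower ones of 14 compared complement genes, of which 0 were higher and whose median was -0.64.

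Many acute phase genes are textbook targets of the transcription factor STAT3, which binds the palindrome TTCNNNGAA, a motif that reads alike on both strands. The 250 bases before the RefSeq start site (GRCr8) were searched for it to show where these genes carry those letters. Of the 11 acute phase genes that were lower, 9 had a window and 4 of the windows held the motif (44.4%). Of the 25 compared genes of the list, 21 had a window and 6 held it (28.6%), and of all 27457 genes with a window, 2066 held it (7.52%). The windows of Serpina3n (chr6:129088142-129088391, plus strand), Il24 (chr13:44910761-44911010, minus strand) and Fgb (chr2:170700876-170701125, minus strand) are shown 5′ to 3′ with the motif in capitals. The motif begins at -123, -152 and -223 from the start site in them. Lcn2 (chr3:36081781-36082030, minus strand), with the largest lower difference, is shown as a window without these letters. A match is a description of the letters and not a measured binding site.
Serpina3n: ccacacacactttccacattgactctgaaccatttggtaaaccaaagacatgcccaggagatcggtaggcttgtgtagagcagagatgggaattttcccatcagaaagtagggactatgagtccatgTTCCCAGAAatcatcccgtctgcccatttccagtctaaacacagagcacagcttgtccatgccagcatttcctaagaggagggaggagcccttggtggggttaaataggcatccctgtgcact
Il24: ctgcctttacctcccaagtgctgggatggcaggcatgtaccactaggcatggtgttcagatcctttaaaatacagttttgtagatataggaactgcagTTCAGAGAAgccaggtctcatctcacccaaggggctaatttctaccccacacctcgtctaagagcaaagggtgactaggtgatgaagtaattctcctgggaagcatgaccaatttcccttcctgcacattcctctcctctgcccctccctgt
Fgb: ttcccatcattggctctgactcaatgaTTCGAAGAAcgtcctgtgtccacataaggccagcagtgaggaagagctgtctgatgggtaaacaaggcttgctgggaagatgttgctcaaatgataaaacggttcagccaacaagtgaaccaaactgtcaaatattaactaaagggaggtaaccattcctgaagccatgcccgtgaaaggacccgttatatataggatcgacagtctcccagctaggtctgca
Lcn2: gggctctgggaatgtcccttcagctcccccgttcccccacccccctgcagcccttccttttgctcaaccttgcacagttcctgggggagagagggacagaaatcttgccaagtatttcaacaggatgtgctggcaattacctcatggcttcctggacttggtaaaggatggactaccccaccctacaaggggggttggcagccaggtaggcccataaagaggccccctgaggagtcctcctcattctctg

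Genes of the extracellular matrix were lower with phlorizin, 16 of the 33 compared (of 41 listed), with 0 higher and a median of -0.88. Mmp12, the macrophage elastase, read 4.87, 4.97, 11.78 and 9.36. Mmp7, the epithelial protease matrilysin, read 5.24, 5.61, 9.81 and 7.59. Both were among the largest of the list, at -2.42 and -2.22. Col1a1 and Col3a1, chains of the fibrillar collagens, read 10.89, 10.48, 15.13 and 13.10 and 11.51, 11.52, 16.03 and 14.22. Tnc, the injury-linked matrix protein tenascin C, read 8.67, 9.02, 12.13 and 10.29. The collagens and Tnc were lower by -2.03, -1.80 and -1.84, and stayed above both arrays without EG.

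Markers of the cells that make matrix or contract were lower as well. Of 12 compared mural and smooth muscle genes, 7 were lower and 0 higher, and the median of -1.24 was the lowest of the lists shown in the plot of differences by list. Acta2 (smooth muscle actin, also of myofibroblasts) read 11.18, 11.19, 14.44 and 12.97. Tagln (transgelin, an actin-binding protein) read 11.85, 11.85, 15.74 and 14.22. Cnn1 (calponin) read 5.01, 5.57, 9.04 and 7.18. These contractile genes differed by -1.48, -1.53 and -1.85, where the cortex gave -0.36 for Acta2 and -0.82 for Tagln and Cnn1 lay within the background range on both cortex arrays with EG.

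Of 12 compared fibroblast markers, 5 were lower and 0 higher, with a median of -0.63. Mfap4, a protein of elastic fibres, read 3.81, 4.72, 12.31 and 9.24, or -3.08. Pdgfra and Dcn, the fixed markers of fibroblasts beside Col1a1, differed less, by -0.61 each. Eln (elastin) read 9.22, 9.82, 12.86 and 10.32, a difference of -2.54, where the cortex gave 0.13. Whether the matrix genes moved with the number of these cells was not tested.

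Markers of macrophages and dendritic cells had 7 lower and 0 higher of 22 compared, with a median of -0.69. Cd163, the macrophage receptor that takes up haemoglobin bound to haptoglobin, read 5.38, 4.99, 9.44 and 6.23, a difference of -3.21. Fcgr2b, an inhibitory antibody receptor, read 5.47, 5.53, 9.51 and 7.15. Ccr2, the receptor that draws monocytes from blood, read 7.91, 8.07, 11.46 and 9.69. The broad macrophage markers Cd68 and Csf1r differed by -0.67 and -0.53, less than these 3 genes. Gpnmb, a lysosomal glycoprotein of phagocytes, read 7.71, 7.36, 13.08 and 10.62, and 5 of 25 compared lysosome genes were lower and 1 higher, with a median of -0.43.

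Chemokines and cytokines were mixed, with 4 lower and 2 higher of 17 compared and a median of -0.21. Il1rn, the antagonist of the interleukin 1 receptor, read 6.89, 5.99, 10.14 and 7.88. Ccl20, which draws dendritic and T cells, read 7.82, 8.04, 8.15 and 9.44, and Cxcl10, an interferon-induced chemokine, read 11.45, 12.22, 11.25 and 12.31. For Ccl20 and Cxcl10 the array with EG and phlorizin was the highest of the 4, by 1.30 and 0.08. Of 20 lymphocyte markers only 5 were compared, of which 1 was lower, and 1 of 11 neutrophil markers was compared.

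Genes of dividing cells were lower with phlorizin in 9 of the 28 compared, with 0 higher and a median of -0.79. Mki67, the proliferation marker Ki-67, read 7.62, 7.60, 11.83 and 10.37. Tpx2, a spindle protein, read 7.59, 7.19, 10.47 and 8.82, and Ccna2 (cyclin A2) read 7.55, 7.39, 10.23 and 8.97. The differences were -1.47, -1.65 and -1.26, with the array of EG and phlorizin above both arrays without EG in each. Cdk1, a cell cycle kinase counted as lower, passed the filter only through the outer medulla EG array, where it read 7.57. Most of these genes are dim, and a filter at the 75th percentile moved the list's median to -0.15.

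Sprr1a and Krt15 had the largest lower differences after Lcn2. Sprr1a, a cornified-envelope protein that stressed epithelia and nerves make, read 5.95, 5.77, 11.51 and 7.0, a difference of -4.52. Krt15, a keratin of basal epithelial layers, read 6.38, 6.23, 10.38 and 6.09, or -4.29. Upk1b, a uroplakin of the urothelium, read 5.12, 5.04, 7.76 and 5.53, all within the background range. On the cortex arrays these 3 genes lay within the background range, so no difference could be read there. All 3 passed the filter only through the outer medulla EG array, so the filter itself favoured a lower difference for them. Of 7 compared markers of urothelium and inner medulla, 2 were lower, namely Krt15 and Upk1b, and 1 higher, with a median of -0.01. The part of such epithelium in the tissue was not tested.

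The genes with the largest lower differences included several outside these lists. Serpine2, an inhibitor of thrombin and other proteases, read 10.73, 10.93, 14.62 and 11.57, and differed by -3.05 here and by -0.37 in the cortex. Guca2b (uroguanylin, a natriuretic peptide) read 8.11, 8.43, 12.59 and 9.84, or -2.75, where the cortex gave 1.37. Gja1 (connexin 43) read 10.39, 10.88, 14.00 and 11.49. Cdh6 and Cdh2, cadherins of the developing and the proximal tubule, differed by -2.34 and -1.87, with Cdh2 within the background range on both EG arrays and at -1.20 with a floor at the background mean.

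Genes of the thick ascending limb were higher with phlorizin. Of 30 listed genes, 21 were compared, and 13 of these were higher and 0 lower, with a median difference of 1.20. The median level of the list read 15.78, 15.59, 13.75 and 14.78, so that the array with EG and phlorizin lay below the pair without EG. Phlorizin alone gave a median of -0.10 for the same genes.

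Egf, the growth factor precursor made in this segment, read 16.96, 17.08, 13.71 and 16.34, a difference of 2.63. Slc9a3, the sodium-proton exchanger NHE3, read 16.07, 16.01, 12.52 and 15.15, also 2.63. Slc16a7, a carrier of lactate and ketone bodies, read 18.15, 18.06, 15.44 and 17.48. Each of these 3 came to within 1 of the control array. Casr, the calcium-sensing receptor that slows calcium reabsorption in this segment, read 11.59, 11.30, 7.71 and 9.29, and Bsnd (barttin, a chloride channel subunit) read 13.04, 13.14, 9.96 and 11.47. Casr and Bsnd differed by 1.58 and 1.5 and remained at least 1.5 below the control.

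The most abundant markers of the segment differed less. Slc12a1 differed by 0.81, Kcnj1 (the potassium channel ROMK) by 0.94 and Umod (uromodulin, the main protein of normal urine) by 0.71. Umod read 18.85, 18.51, 17.46 and 18.17, near the highest value of the table, 19.7. Cldn16 and Cldn19, the claudins of the paracellular calcium and magnesium path, read 14.42, 14.09, 14.36 and 14.19 and 14.37, 14.49, 15.24 and 14.68. The claudins were therefore not higher with phlorizin, and they were also not lower with EG than in the control by more than 0.06.

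Intercalated cell genes were higher in 10 of the 22 compared, with 1 lower and a median of 0.91. Slc26a7, an anion exchanger of these cells in the outer medulla, read 13.35, 12.87, 8.82 and 12.04, a difference of 3.22. Slc4a1, the chloride-bicarbonate exchanger AE1 of intercalated cells and red cells, read 15.96, 16.27, 12.97 and 15.24. Oxgr1, a receptor for 2-oxoglutarate, read 10.78, 11.33, 6.86 and 9.20. The proton pump subunits Atp6v1b1 and Atp6v0d2 differed by 1.62 and 1.15. Car15, a membrane carbonic anhydrase, was the lower one, at 4.74, 4.99, 8.76 and 6.06.

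Principal cell genes were higher in 7 of the 18 compared, with 0 lower and a median of 0.47. Kcnj10, the basolateral potassium channel Kir4.1, read 10.96, 11.11, 5.76 and 8.73, and its partner Kcnj16 read 14.51, 14.37, 12.64 and 14.07. Aqp3 and Aqp4, the basolateral water channels, read 15.47, 16.10, 13.95 and 15.19 and 14.77, 15.29, 12.85 and 14.29. Scnn1a, the alpha subunit of the sodium channel ENaC, differed by 1.38, but Aqp2, the vasopressin-regulated water channel, by only 0.63 and Scnn1g, the gamma subunit, by 0.36.

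Genes of mitochondrial metabolism had differences above 0 that mostly stayed under 1. In the respiratory chain list 29 of 30 compared genes had a difference above 0 and the median was 0.57, but only 1, Uqcrfs1 of complex III, was at least 1 higher, a share near that of all probe sets. In the citrate cycle 15 of 16 were above 0, with 3 higher, 0 lower and a median of 0.56. Idh2, the mitochondrial isocitrate dehydrogenase, read 17.03, 16.91, 14.86 and 15.98. The median level of the respiratory chain genes read 14.90, 14.88, 13.49 and 14.11.

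Of 31 compared genes of fatty acid oxidation, peroxisomes and ketones, 10 were higher and 4 lower, with a median of 0.57. Among the higher ones were Cpt1b, which carries fatty acids into mitochondria (13.16, 13.35, 10.20 and 12.64), and Acsl1, which activates them (16.51, 16.34, 13.69 and 15.62). The ketone enzymes Bdh1 and Oxct1 differed by 1.70 and 1.5. The 4 lower ones were Cyp4a8, Cyp4a2, Cyp4a1 and Acsm2, of which the Cyp4a enzymes hydroxylate fatty acids and Acsm2 activates medium-chain acids. Cyp4a8 read 10.02, 9.82, 13.23 and 10.52, or -2.71. In the control cortex Cyp4a8 read 15.96, over 5 above the control outer medulla.

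Transcription factors that drive mitochondrial and distal tubule genes were among those higher. Ppargc1a, the coactivator PGC-1alpha, read 16.24, 15.83, 14.55 and 15.59, Esrrb read 10.19, 10.01, 6.57 and 8.27, and Esrrg read 14.18, 14.16, 12.29 and 13.67. Of 22 compared tubule transcription factors, 5 were higher and 2 lower, with a median of 0.49. The lower ones were Hnf4a, a factor of the proximal tubule (7.22, 7.52, 8.02 and 6.24), and Sox11. Slc2a4, the insulin-responsive glucose carrier GLUT4, read 10.49, 10.67, 6.36 and 9.05, a difference of 2.69, and lay within the background range on all cortex arrays.

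Haemoglobin genes gave the largest higher differences. Of 9 compared red cell genes, out of 23 listed, 7 were higher and 0 lower, and the median was 2.69. Without the filter, which adds genes below 7.54 on every array, the median was 0.11. Hbb-b1 read 11.43, 10.88, 7.27 and 11.48, Hba-a3 read 12.54, 12.95, 9.28 and 13.33, and Hbb read 14.69, 15.18, 11.72 and 15.61. The EG array was the lowest of the 4 for each, by at least 2.97, and the other 3 arrays lay within 1 of each other. Slc4a1, described above, is also counted in this list. Alas2, the heme-synthesis enzyme of young red cells, read 7.22, 6.77, 5.87 and 7.88, within the background range. Haemoglobin genes share long stretches of sequence, so the values of single copies are uncertain. Haemoglobin RNA comes with blood in the tissue, and how much blood each piece of tissue held was not measured. Of 20 compared markers of endothelium and vasa recta, 2 were higher and 0 lower, against 3.35% and 4.34% of all probe sets, with a median of 0.42. Kdr and Flt1, receptors of the growth factor VEGF, differed by 1.05 and 1.27, but Pecam1 and Cdh5, markers of all endothelium, by -0.15 and 0.01.

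Other single genes stood out among the higher ones. Dnase1, the secreted DNA-degrading enzyme, read 16.28, 16.42, 9.97 and 13.58, a difference of 3.60. Ptgs2 (cyclooxygenase 2, which in the kidney responds to salt and tonicity) read 13.14, 14.13, 10.94 and 14.39, or 3.45, and lay within the background range on both cortex arrays with EG. Nr4a2, a nuclear receptor that many stimuli induce rapidly, read 9.27, 10.42, 8.69 and 11.43. Nr4a2 was the only higher one of 18 compared immediate early genes, with Egr1, Fos and Jun at 0.10, -0.50 and 0.25. Phlorizin alone gave differences of 0.99 for Ptgs2 and 1.15 for Nr4a2.

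Osmolyte genes, which medullary cells use against high salt and urea, had 2 higher and 0 lower of 14 compared, with a median of 0.38. Of all probe sets, 3.35% were higher and 4.34% lower. Akr1b1 (aldose reductase, which makes sorbitol) read 14.32, 15.06, 14.61 and 15.46, and Slc5a3, the carrier of inositol, read 16.26, 15.86, 14.73 and 15.56. Circadian clock genes had a median of 0.59, with 1 of 14 higher. Phlorizin alone gave nearly the same median in the outer medulla, 0.57, on 2 other arrays, but with 4 higher and 2 lower of the 14. Its differences ran from -1.21 to 1.40, and those among EG rats from -0.63 to 1.03. Dbp, a clock output factor, read 14.27, 15.68, 14.21 and 15.11, and Per3 read 9.50, 10.76, 9.51 and 10.32. For Dbp and Per3 both arrays with phlorizin lay above both without. The part of the time of day in these values was not tested.

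Genes listed for the straight proximal tubule were lower with phlorizin in the outer medulla. Of 25 listed genes, 19 were compared, and 11 were lower and 1 higher, with a median of -1.04. The median level of the list read 8.84, 8.97, 9.19 and 8.74, so the EG and control arrays differed by less than 0.5 in it. In the control cortex the same median was 13.70, so as a list these genes read higher in the cortex than in this zone. Slco1a6, an organic anion carrier, read 11.88, 12.48, 11.28 and 9.62. Slc27a2, which imports very long-chain fatty acids, read 8.84, 9.69, 9.19 and 7.61, and Slc6a18, an amino acid carrier, read 10.78, 10.48, 10.85 and 9.28. For these 3 genes the array with EG and phlorizin was the lowest of the 4. Without the filter on low values the median of the list was -0.63.

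Aadat, an enzyme of tryptophan and lysine breakdown, read 15.00, 15.01, 15.79 and 14.49. Slc7a13, the cystine carrier of this segment, read 13.48, 13.85, 12.51 and 11.47. Slc5a1 (SGLT1, the carrier of this segment that phlorizin blocks) read 4.58, 4.22, 5.84 and 4.73, all within the background range. Of 14 compared glucose transport genes, 4 were lower and 2 higher, and the median of -0.29 became 0.33 with a filter at the 75th percentile. With a floor at the background mean, Slc5a1 differed by -0.18 and Slc5a12 by 0.74, so neither was then called. Slc2a2, the glucose carrier GLUT2, read 4.83, 5.67, 7.24 and 5.51, also within it, and Slc2a1 (GLUT1) differed by 0.33.

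Convoluted proximal tubule genes had 6 lower and 2 higher of 18 compared, with a median of -0.51, which a filter on the outer medulla arrays alone moved to -0.94. Lrp2 and Cubn, the receptors that take up filtered protein, read 11.10, 11.32, 12.06 and 10.85 and 10.75, 10.19, 11.76 and 10.44. The 2 higher ones, Slc5a12 and Slc22a8, lay within the background range on both EG arrays. Carriers of organic ions had 7 lower and 3 higher of 16, with a median of -0.88, which was -0.52 without the filter. Antioxidant genes had 9 lower and 0 higher of 29, with a median of -0.31. Of these, Gpx3, the plasma glutathione peroxidase that the proximal tubule makes, read 12.12, 12.33, 14.15 and 12.12, and Gclc, the first enzyme of glutathione synthesis, read 13.88, 14.11, 13.22 and 12.04.

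Genes of oxalate and calcium handling were called in both directions. Of 13 compared oxalate and glyoxylate genes, 3 were lower and 1, Slc26a7, higher, and 10 had a difference below 0. Their median of -0.40 became -0.78 with a filter at the 75th percentile. Hao2, a peroxisomal hydroxyacid oxidase, read 13.89, 14.32, 13.95 and 12.59, Dao (D-amino acid oxidase) read 7.98, 8.74, 8.39 and 6.38, and Agxt2, a glyoxylate aminotransferase, read 9.52, 9.40, 11.33 and 9.05. Of 25 vitamin D, calcium and phosphate genes, 6 were lower and 2 higher, with a median of -0.15. Trpv5, a calcium entry channel of distal tubule cells, read 5.48, 4.49, 13.76 and 10.99, and its relative Trpv6 read 4.38, 4.37, 9.53 and 7.92. For both, the 2 arrays with EG, which includes the vitamin D analogue, lay above the 2 without. Kl (klotho, the co-receptor of FGF23) went the other way, at 14.51, 14.03, 10.92 and 12.98.

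The cortex of the same treatments gave more and larger differences, with 967 probe sets higher (7.34%) and 815 lower (6.19%). Poly-A spikes averaged 6.42 on the cortex EG array, the lowest of the series, and 7.67 on the cortex array with EG and phlorizin. Hybridisation spikes averaged 9.68 and 10.37 on them. All cortex differences among EG rats given here rest on that EG array, and the part of the spike difference in them was not tested. Over 13170 probe sets, the outer medulla and cortex differences had a Pearson correlation of 0.35 and a Spearman correlation of 0.32, and the zones share no array but can share animals. Of the probe sets higher in the outer medulla, 152 were also higher in the cortex (34.5% of the outer medulla's, 15.7% of the cortex's). Of those lower, 226 were also lower in the cortex (39.5% and 27.7%). Phlorizin alone in the outer medulla had a correlation of 0.06 (Spearman 0.07) with phlorizin among EG rats there.

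**Figure D3:**
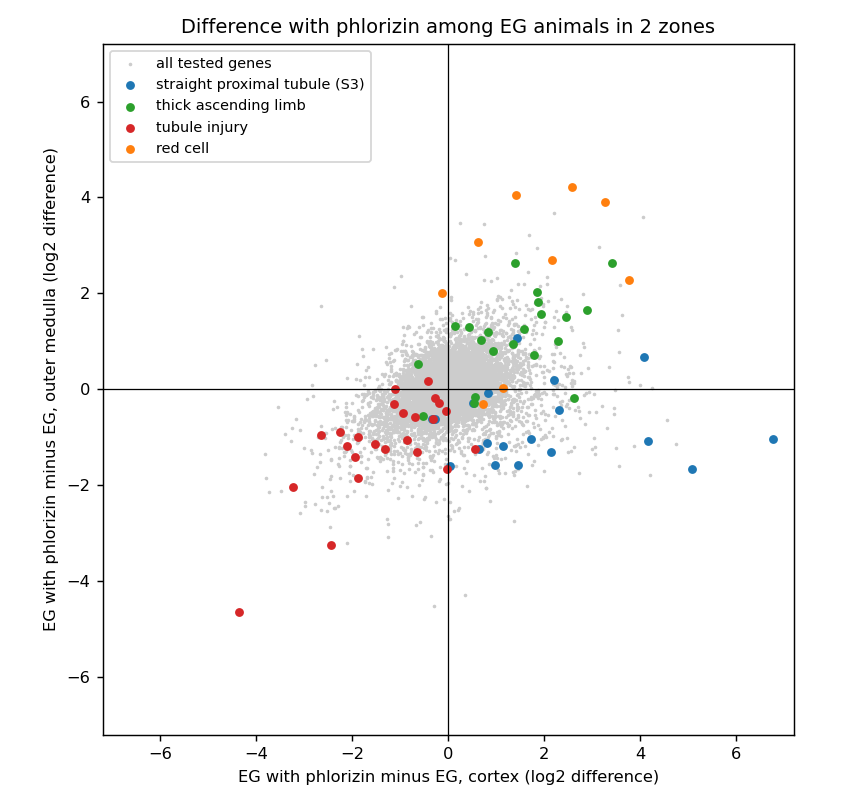
Log2 difference between EG with phlorizin and EG in the cortex (x axis) against the outer medulla (y axis) for all compared genes with a symbol (grey), with 4 gene lists in colour. Thick ascending limb and red cell genes lie mostly at upper right and injury genes at lower left, while most straight proximal tubule genes lie at lower right (medians -1.04 for the outer medulla, 1.43 for the cortex).

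Some genes differed in opposite directions in the zones. At least 1 apart in opposite directions were 74 probe sets (0.562%), of which 71 were lower in the outer medulla and higher in the cortex and 3 were the reverse. The straight proximal tubule list had 11 higher and 0 lower in the cortex, with a median of 1.43, against -1.04 in the outer medulla. Slco1a6 differed by 5.08 in the cortex, Slc7a13 by 6.76 and Gclc by 3.87, against -1.66, -1.04 and -1.18. Other proximal tubule genes had the same sign in both zones, among them Cubn (-1.33 and -0.21 in the cortex) and Slc2a2 (-1.74 and -0.92). Slco1a6 read 13.49 in the control cortex, 7.72 with EG and 12.80 with EG and phlorizin.

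The probe sets were also grouped by the zone in which they are high on the control arrays, a grouping chosen after values had been seen. Probe sets at least 3 higher in the control cortex than in the control outer medulla numbered 555, and of these 132 were lower with phlorizin (23.8%) and 9 higher (1.62%), with a median of -0.44. Their median level read 7.56, 7.51, 7.90 and 7.42 in the outer medulla, all within the background range. In the 239 of them whose mean over the 4 outer medulla arrays lay above every background probe, 63 were lower (26.4%) and 5 higher (2.09%), with a median of -0.51. Of all 10663 probe sets above that level, 355 were lower (3.33%) and 384 higher (3.60%). Probe sets at least 3 higher in the control outer medulla numbered 292, and 100 of them were higher (34.2%) and 11 lower (3.77%), with a median of 0.69. Their median level read 12.21, 12.28, 11.11 and 11.87. Of the 71 probe sets lower here and higher in the cortex, 57 were among the 555. How much cortex each piece of outer medulla carried over was not tested.

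**Figure D4:**
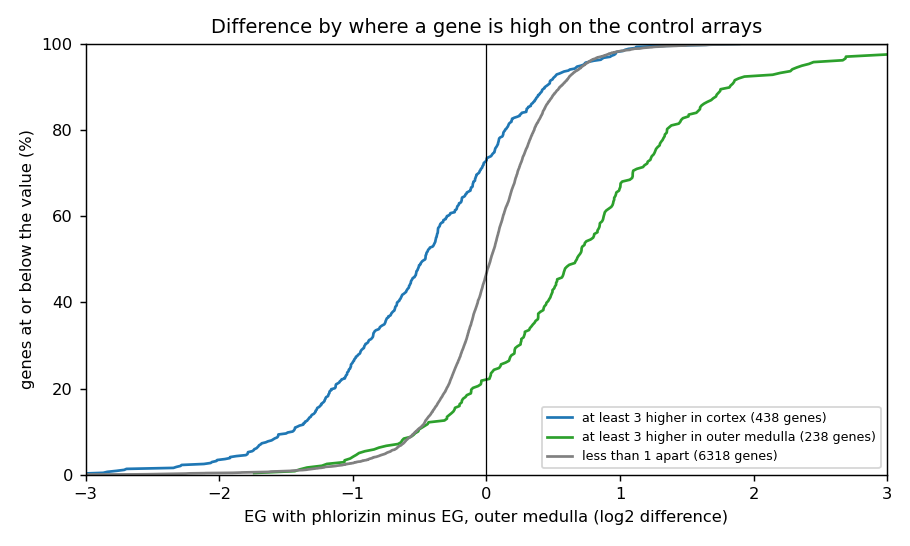
Cumulative share of genes (y axis, %) by the log2 difference between EG with phlorizin and EG in the outer medulla (x axis, shown from -3 to 3), for genes at least 3 higher in the control cortex, genes at least 3 higher in the control outer medulla and genes whose controls were less than 1 apart. The medians of these 438, 238 and 6318 genes with a symbol are -0.46, 0.68 and 0.03.

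Genes that differed with EG in the cortex, on arrays outside the comparison, were also grouped. The 335 probe sets at least 2 higher in the EG cortex than in the control cortex had a median of -0.90 in the outer medulla comparison, with 144 lower (43.0%) and 1 higher (0.299%). The 368 probe sets at least 2 lower in the EG cortex had a median of 0.17, with 82 higher (22.3%) and 37 lower (10.1%). The 6664 within 0.5 of each other had a median of 0.04, with 115 higher (1.73%) and 101 lower (1.52%). The genes that were higher in the EG cortex thus lay mostly on the lower side here, and those that were lower there were spread over both sides.

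Few values of the array with EG and phlorizin lay outside the other outer medulla arrays. It was at least 1 above all 3 others for 9 probe sets (0.0683%) and at least 1 below all 3 for 41 (0.311%), where the EG array was so for 389 and 350. The control array was so for 7 and 22, and the phlorizin array for 14 and 6. The higher ones included Ccl20, Nr4a2, Birc3, an inhibitor of cell death (5.84, 7.03, 7.53 and 8.65), and Igfbp1, a binding protein of insulin-like growth factors (13.69, 14.85, 15.03 and 16.13). The lower ones included Slco1a6, Dao, Slc27a2 and Hao2, which are proximal tubule genes, and Hes1, the effector of Notch signalling (10.59, 10.30, 10.24 and 8.85). Prlr, the prolactin receptor, read 9.35, 9.54, 9.46 and 7.75.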

How the data were processed

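Per the labels, Clariom S arrays of the rat carried RNA of 2 kidney zones under 4 treatments, 1 array each. The deposited values were taken to be log2, since they span 2.28 to 19.7, and the submitters' processing notes name RMA. Its version is not given here by any source used. RMA summarises the probes of a probe set and brings the arrays to a common distribution, which can hide a shift shared by most genes. Of 24834 probe sets, 1646 control and other ones were left out. GEO's platform annotation, with symbols checked through RefSeq by Entrez ID, named 15049 of the remaining 23188, and 8139 had no name here. Where several probe sets shared a symbol (6 of those compared), the one with the highest mean stood for the gene. The filter left 13170 probe sets, 9315 of them with a symbol.

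Differences between arrays were computed with Python 3.11.15, pandas 2.3.3, numpy 2.4.6, statsmodels 0.14.6 and matplotlib 3.10.9, and the scripts were tested on simulated data. No statistical test was made. Members of 50 gene lists (1023 genes, of which 767 were compared) were counted beside all probe sets. Genes were named by a rule: 13 genes of interest, the 30 largest differences in each direction, the 5 largest of each list, the 12 largest with opposite signs in the zones (by the smaller of the 2 differences) and the 12 largest above or below the other outer medulla arrays. Uncharacterised loci were passed over, and genes are given as space allows. Fixed marker genes and members set beside a named gene were added for comparison. The comparison, lists and rule were chosen with earlier results of these data known. Alternatives covered the scaling, filter, background floor, size threshold and choice of probe set.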

Additional observations from a re-analysis of the deposited data

Results flagged for a closer look

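For 61 genes with a symbol the arrays with and without phlorizin among EG rats were at least 1 apart in opposite directions in the outer medulla and the cortex, with 1 array a side, and the difference between the zones was not tested. In 58 of them the outer medulla was the lower side and in 3 the higher. The 12 with the largest difference, by the smaller of the zones, are given here. The values are the outer medulla difference minus the cortex difference on the log2 scale. Those lower in the outer medulla and higher in the cortex were carriers, namely Slco1a6 at -6.74, Slco1a3 at -6.00, Slc23a1 (a vitamin C carrier) at -3.28, Slc5a8 (a lactate carrier) at -3.10 and Slc27a2 at -3.03. Secreted or enzymatic products of the same sign were Tff3 (a trefoil peptide) at -5.16, Apom (apolipoprotein M) at -4.48, Mep1a (meprin A, a brush border protease) at -3.69, Dao at -3.65 and Pzp (a protease trap) at -3.31, and the receptor Prlr gave -3.10. Lpl (lipoprotein lipase) was the reverse, at 4.40. Apom, Pzp and Slc5a8 lay within the background range on both outer medulla arrays of the comparison. Dao, Mep1a, Slc27a2, Prlr and Tff3 lay within it on the array with EG and phlorizin only. A floor at the background mean moved the outer medulla difference of Apom from -1.75 to -0.45.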

How the results depend on the processing

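With 1 array a group, no alternative shows how far animals differ, and signal over background limits the dim genes. No paired analysis was possible because each group has 1 array and no replicate numbers. The 441 higher and 572 lower probe sets became 134 and 176 at a size threshold of 1.5 and 44 and 64 at 2. With the filter at the 75th percentile over the outer medulla arrays, 276 were lower and 305 higher, so that 52.5% of the called probe sets were higher against 43.5% as reported. That filter compares fewer, brighter probe sets. The counts above and below the other 3 outer medulla arrays became 35 and 90 at a threshold of 0.75, and 0 and 4 at 1.5. Median centring (422 and 597), quantile normalization (455 and 577), removal of the lowess trend (428 and 574), a background floor (436 and 554), no filter (551 and 719) and the filter over the outer medulla arrays at the median (435 and 522) left the higher and lower counts within 1.5 times. Among 1355 recomputed differences of 271 named genes, 8 moved by more than the SD of phlorizin minus control in the outer medulla (0.31), all 8 of them dim genes under the background floor, and among 349 recomputed medians of 50 lists 17 did, all under another filter. A filter added after seeing the data, on the mean of the outer medulla arrays, moved the medians of both groups chosen by zone by less than that SD. None of these values, nor of the 24 recomputed zone differences, changed sign where it had been called. Some that had not been called did. With the filter at the 75th percentile the glucose transport median went from -0.29 to 0.33. The median of P450 and glucuronidation genes went from -0.20 to 0.49 with it. Under the background floor Slc5a2 went from -0.46 to 0.06 and F2 from -0.77 to 0.06.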

Other observations

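Some gene groups not described above gave few or mixed differences between EG with phlorizin and EG in the outer medulla. Of all probe sets, 3.35% were higher and 4.34% lower there. Of 23 compared interferon and antigen presentation genes, 3 were higher and 1 lower. Rsad2, an antiviral enzyme, read 9.35, 9.52, 7.47 and 8.77 on the control, phlorizin, EG and EG with phlorizin arrays, and RT1-Ba, a class II antigen-presenting chain, read 9.03, 8.58, 10.75 and 9.42. Of 35 growth factor and receptor genes, 8 were higher and 3 lower, with a median of 0.04 that was 0.63 with the filter at the 75th percentile. Inhba, the activin A subunit, was lower (6.32, 7.38, 12.00 and 10.40), and Fgf9 (13.07, 13.35, 11.07 and 12.43) and Btc, a ligand of the EGF receptor (12.05, 12.08, 10.53 and 12.01), were higher.

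Of 21 compared genes of the endoplasmic reticulum stress and amino acid response, 1 was lower and 0 higher, with a median of -0.20. That gene was Slc7a11, the cystine-glutamate exchanger, at 5.87, 5.81, 7.60 and 6.34, within the background range. Slc7a11 passed the filter only through the outer medulla EG array, the array that it was lower than. Of 27 glycolysis and hypoxia genes, 2 were higher and 0 lower. Of 16 compared glucocorticoid response genes, 2 were higher and 2 lower, 12 had a difference above 0 and the median was 0.45. Zbtb16, one of the lower ones, read 11.15, 8.82, 7.56 and 6.54. It was lower with phlorizin in both pairs of outer medulla arrays, but both its EG values lay within the background range. Of 9 compared podocyte markers, 0 were higher or lower, and Nphs1 (nephrin) lay at 5.0 to 5.80, within the background range.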
